A study of Mus musculus with 18 samples.

Results

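Germ cells taken from mouse embryos and kept in culture were compared with germ cells of the same culture that had been made from stem cells. The embryonic cells were primordial germ cells (PGCs), sorted at embryonic day 9.5 and cultured for 5 days (E9.5c5). The stem cell-derived cells were PGC-like cells (PGCLCs), sorted at day 4 of induction and cultured for 7 days (d4c7). Both were grown in FR10, a medium with stem cell factor and 10 µM each of forskolin and rolipram, agents that raise cAMP. The comparison rests on the 4 libraries that the labels name in this way, 2 of E9.5c5 and 2 of d4c7, out of 18 libraries in the series, and covers all genes. Each file held a value for 34850 genes, and the 9561 that reached 10 RPM (reads scaled to a common library total) in at least 2 libraries were tested.

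E9.5c5 cells were of strain B6D2F1 x C57BL/6, carried a Stella-EGFP reporter and were sorted for EGFP. The d4c7 cells were labelled B6D2F1, carried Blimp1-mVenus and Stella-ECFP reporters (BVSC) and were sorted for mVenus. Stella is Dppa3 and Blimp1 is Prdm1, so the levels of these genes are not independent of the sorts. Cells of both kinds grew on mitomycin C-treated m220-5 feeder cells that had been adapted to forskolin and rolipram. Cell source, strain, reporter, sort and days in culture differ together between the groups and cannot be told apart. How many embryos went into a library is not stated. The same cell sources were also cultured with cyclosporin A (CsA), which blocks calcineurin, in 2 libraries each. The labels do not say whether forskolin and rolipram were in those cultures as well. The remaining libraries hold d4c7 cells from cultures labelled FGF10 and FGF2, uncultured day 4 PGCLCs, epiblast-like cells (EpiLCs) and embryonic stem cells (ESCs), the last kept with the kinase inhibitors of the medium called 2i and LIF.

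PGCs are the founders of sperm and eggs. At embryonic day 9.5 they migrate through the hindgut epithelium towards the future gonads, while their DNA loses methylation across the genome. Their identity rests on the transcription factor genes Prdm1, Prdm14 and Tfap2c, and genes of gamete formation such as Dazl and Ddx4 are switched on later, when the gonads are reached. PGCLCs are made from ESCs by way of EpiLCs and correspond to PGCs at about the migrating stage.

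The E9.5c5 libraries were less alike than the d4c7 libraries. Taken over all tested genes, 2 replicates differed on the log2 scale by a median of 0.426 in E9.5c5 FR10 and of 0.281 in d4c7 FR10, whatever the sign. E9.5c5 replicate 1 lay nearer to d4c7 replicate 2, at 0.306, than to its own replicate. At equal read number 13641 and 12646 genes were detected in E9.5c5 replicates 1 and 2, against 13859 and 13985 in the d4c7 replicates. E9.5c5 FR10 replicate 2, E9.5c5 CsA replicate 2 and d4c7 FGF2 replicate 2 had the lowest numbers of the 18, and counts without these 3 libraries are given beside the main counts. The depth inferred from the step between low values was 2582390 to 3982045 reads in the 4 FR10 libraries.

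Of the 9561 genes tested, 3 were called higher and 1 lower in E9.5c5 than in d4c7 cells in FR10. The growth factor gene Gdf3 averaged 326 ± 45.6 RPM in E9.5c5 and 114 ± 11.7 RPM in d4c7 cells (SD, n = 2 each). The imprinted gene Phlda2 and the ribosomal protein gene Rpl29 also rose, and the actin regulator gene Pfn1 fell. These 4 are 0.0418% of the 9561 genes tested with limma (0.0314% higher, 0.0105% lower), called where the Benjamini-Hochberg adjusted p was under 0.05. At an unadjusted p under 0.05 there were 1421 genes (14.9%), 302 of them higher (3.16%) and 1119 lower (11.7%). The median gene stood at −0.20 on the log2 scale and at −0.03 with median-ratio scaling, which centres the libraries. With that scaling 2 genes were called, both higher. Without the 3 libraries named above 31 genes were called, 8 higher and 23 lower, and all 4 were among them. Without E9.5c5 replicate 1 the count was 259, and without E9.5c5 replicate 2 or either d4c7 replicate it was 0.

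**Figure D1:**
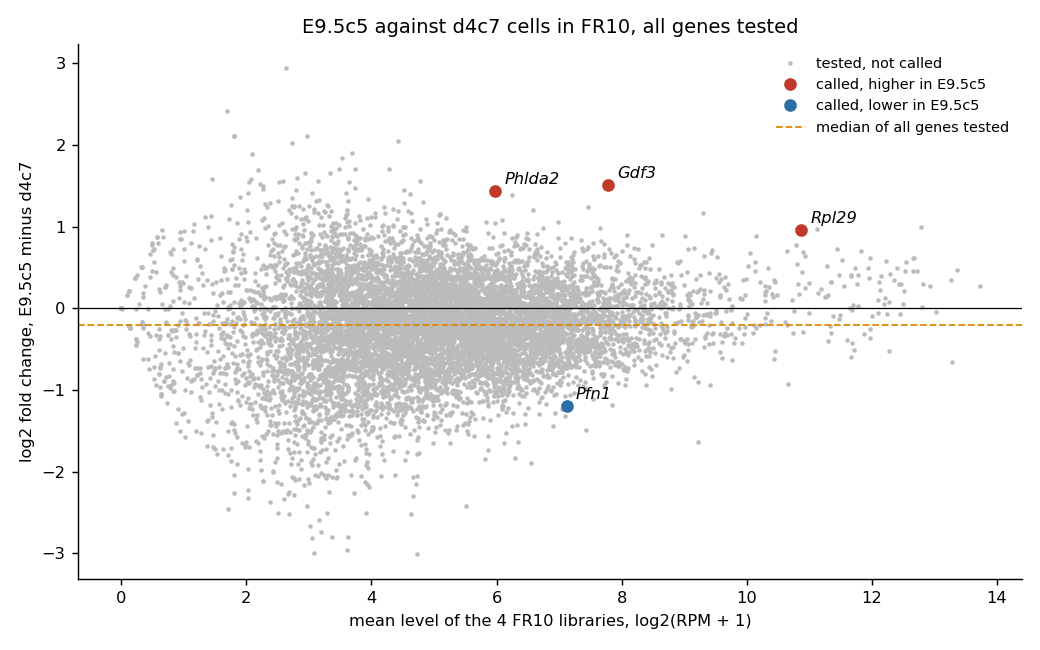
Each point is 1 of the 9561 genes tested, with its mean level over the 4 FR10 libraries as log2(RPM + 1) on the x axis and its log2 fold change, E9.5c5 minus d4c7, on the y axis. The 4 called genes are named, and the dashed line marks the median of all genes at −0.20.

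Gdf3 encodes a secreted ligand of the Nodal-related branch of the TGF-beta family, which pluripotent cells express. It lies on chromosome 6 (chr6:122605403-122610087, GRCm38). Gdf3 had 294 and 358 RPM in the E9.5c5 FR10 libraries, against 105 and 122 RPM in the d4c7 FR10 libraries. The groups did not overlap, and the log2 fold change was 1.51 ± 0.20 (SE, limma adjusted p = 0.00716). In CsA, Gdf3 had 355 and 370 RPM in E9.5c5, against 129 and 134 RPM in d4c7 (log2 fold change 1.45, limma adjusted p = 0.0116). The fold change there comes from other libraries than in FR10, while both tests share 1 estimate of the spread. It was the 1 gene called in that medium (0.0105%). Across the series the 4 E9.5c5 libraries lay at 294 to 370 RPM and the 14 others at 71.6 to 151 RPM, ESCs being the highest of these with 142 and 151 RPM. Under 15 alternatives of processing or choice of libraries the log2 fold change of Gdf3 was 1.37 to 1.69, and it stayed called in 10 of them. It was not called without E9.5c5 replicate 2 (adjusted p = 0.335), without d4c7 replicate 1 (0.373) or 2 (0.0831), or in fits of the 12 cultured libraries (0.168) or the 4 FR10 libraries alone (0.389).

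Phlda2 encodes a small protein with a pleckstrin homology domain. It is an imprinted gene expressed from the maternal copy and is known for restraining growth of the placenta. Phlda2 (chr7:143501545-143503145) had 75.2 and 108 RPM in E9.5c5, against 29.4 and 36.3 RPM in d4c7 cells in FR10. The log2 fold change was 1.44 ± 0.24 (SE, limma adjusted p = 0.0429), with no overlap. In CsA it had 104 and 118 RPM in E9.5c5, against 62.5 and 48.9 RPM in d4c7, a log2 fold change of 0.99 that was not called. E9.5c5 cells in both media stood near ESCs, at 100 and 116 RPM, and EpiLCs, at 120 RPM in both libraries. The highest level of the series was in uncultured day 4 PGCLCs, with 478 and 459 RPM, and the lowest in d4c7 cells with FGF2, with 14.5 and 13.1 RPM. The neighbouring imprinted gene Cdkn1c, an inhibitor of the cell cycle, had 6.46 and 1 RPM in E9.5c5, against 1.94 and 4.14 RPM in d4c7 (−0.01 ± 0.65). At such low levels and with this SE the value says little. Slc22a18, 2.2 kb away, had 1.7 and 3.77 RPM in E9.5c5, against 1.94 and 3.11 RPM in d4c7, and was too low to be tested. Nap1l4, which lies beside Phlda2, differed by −0.04 ± 0.36.

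Pfn1 encodes profilin, which binds actin monomers and feeds them into growing filaments. Pfn1 (chr11:70651844-70656799) had 78.9 and 88.1 RPM in E9.5c5, against 203 and 184 RPM in d4c7 cells in FR10. The log2 fold change was −1.20 ± 0.20 (SE, limma adjusted p = 0.0429), and the groups did not overlap. In CsA the values were 65.1 and 85 RPM in E9.5c5, against 132 and 154 RPM in d4c7 (log2 fold change −0.93, not called). Day 4 PGCLCs had the most, 325 and 326 RPM, and ESCs, with 89.6 and 88.4 RPM, stood just above the E9.5c5 range. The annotated span of Pfn1 overlaps that of Eno3, and as no source states that the counting used strand, reads of the overlap cannot be told apart. Eno3 itself, an enolase gene of muscle, was at 5.1 and 11.8 RPM in E9.5c5, against 15.1 and 5.87 RPM in d4c7.

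The promoters of Phlda2 and Pfn1 are shown because both groups were grown with agents that act through cAMP. Each runs from 250 bases before to 50 bases after 1 annotated start, on the minus strand, from RefSeq (GRCm38.p6), at chr7:143502475-143502774 and chr11:70654601-70654900. Of the 4 called genes these 2 matched the promoter table, and Gdf3 and Rpl29 did not. Capitals mark exact matches on either strand to the TATA box TATAAA, the GC box GGGCGG and the half-site TGACG of the cAMP response element, none of which overlap here.
Phlda2: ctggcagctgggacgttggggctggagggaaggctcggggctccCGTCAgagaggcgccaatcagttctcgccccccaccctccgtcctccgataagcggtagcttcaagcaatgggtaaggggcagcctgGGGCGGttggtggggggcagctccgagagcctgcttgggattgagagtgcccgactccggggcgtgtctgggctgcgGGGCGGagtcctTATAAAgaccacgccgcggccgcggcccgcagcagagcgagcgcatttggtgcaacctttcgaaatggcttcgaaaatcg
Pfn1: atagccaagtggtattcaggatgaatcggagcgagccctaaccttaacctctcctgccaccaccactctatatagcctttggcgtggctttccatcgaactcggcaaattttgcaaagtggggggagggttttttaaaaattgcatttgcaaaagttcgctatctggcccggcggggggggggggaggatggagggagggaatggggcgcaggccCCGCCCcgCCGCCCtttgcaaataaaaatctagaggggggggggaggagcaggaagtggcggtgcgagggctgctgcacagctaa
The Phlda2 window held 1 half-site, 1 TATA box and 2 GC boxes, and the Pfn1 window 2 GC boxes. Among 32851 promoter windows of this length, 20.8% held the half-site, 13.6% the TATA box and 35.7% the GC box. The agents were common to both groups, and the part of these sites in the differences between the groups was not tested. The Phlda2 window had 26 CpG dinucleotides and the Pfn1 window 14, against a median of 7 over all windows.

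Rpl29 encodes a protein of the large ribosomal subunit. Rpl29 (chr9:106428889-106431568) had 2300 and 2660 RPM in E9.5c5, against 1240 and 1310 RPM in d4c7 cells in FR10. The log2 fold change was 0.96 ± 0.16 (SE, limma adjusted p = 0.0429), with no overlap. In CsA it had 2230 and 3000 RPM in E9.5c5, against 1480 and 1440 RPM in d4c7 (log2 fold change 0.82, not called). The 4 E9.5c5 libraries at 2230 to 3000 RPM lay above the 14 others, which ran from 1150 to 1680 RPM. Ribosomal protein genes have processed copies in the genome that can share reads, so this level is uncertain. With median-ratio scaling Rpl29 (adjusted p = 0.0781) and Pfn1 (0.0866) were no longer called, while Gdf3 and Phlda2 were. Phlda2, Rpl29 and Pfn1 were each called in 9 of the 15 alternatives and, like Gdf3, in none that left out E9.5c5 replicate 2 alone or a d4c7 replicate.

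**Figure D2:**
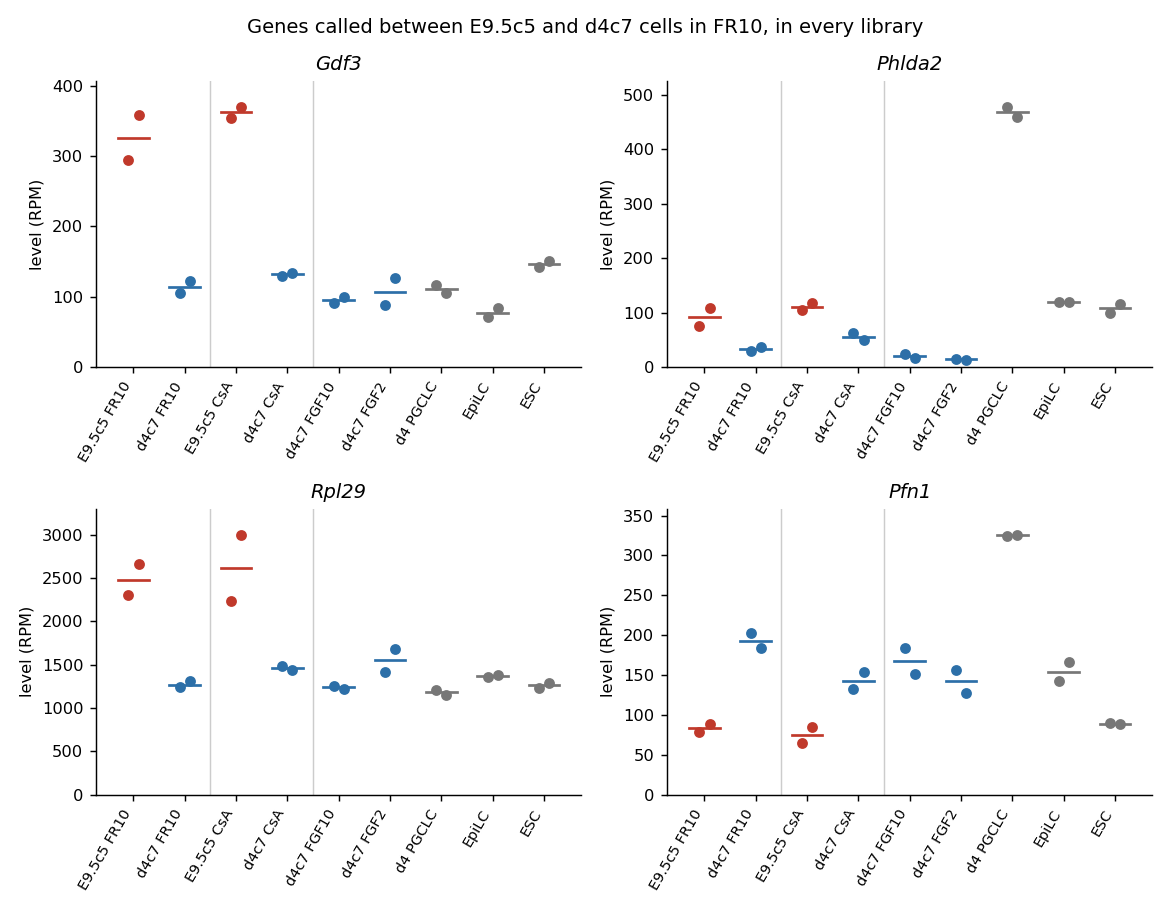
Levels in RPM of the 4 genes called between E9.5c5 and d4c7 cells in FR10, with 1 point per library and a bar at the mean of each group of 2. Gdf3 in the 4 E9.5c5 libraries sits at 294 to 370 RPM and in the 14 others at 71.6 to 151 RPM.

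Dppa3, which encodes Stella, a maternal and germ cell protein that protects DNA methylation in the early embryo, lies 16.3 kb from Gdf3. It had 3270 and 2620 RPM in E9.5c5, against 1490 in both d4c7 libraries in FR10. The groups did not overlap, but the log2 fold change of 0.97 ± 0.24 was not called (limma adjusted p = 0.159). In CsA it had 3690 and 2350 RPM in E9.5c5, against 1550 and 1620 RPM in d4c7. The E9.5c5 levels were above those of the 14 other libraries, which ran from 21.7 to 1620 RPM. Both cell sources carry a reporter built from this gene, EGFP in E9.5c5 and ECFP in d4c7, and EGFP was used to sort E9.5c5. The part of the reporters in the level of Dppa3 or of its neighbours was not tested.

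Other genes around Gdf3 had mixed values. Apobec1, an RNA and DNA cytidine deaminase gene 2.4 kb away that was too low to be tested, had 6.8 and 9.54 RPM in E9.5c5, against 0.387 and 0.345 RPM in d4c7. Mfap5, a gene of the extracellular matrix 76.1 kb away, had 10.2 and 2.51 RPM in E9.5c5, against 1.55 and 1.04 RPM in d4c7, and did not pass (1.46 ± 0.67, limma adjusted p = 0.326). Nanog, 97.4 kb away and a transcription factor gene of pluripotency, had 76.2 and 28.1 RPM in E9.5c5, against 94.1 and 78 RPM in d4c7 (−0.87 ± 0.49). The glucose transporter gene Slc2a3, 117.7 kb away, differed by 0.08 ± 0.20. Rimklb, 118.3 kb away, had 78.9 and 64.8 RPM in E9.5c5, against 108 and 80.4 RPM in d4c7. In FR10 both E9.5c5 libraries were thus above both d4c7 libraries at Gdf3, Apobec1, Dppa3 and Mfap5, and not at Nanog, Slc2a3 or Rimklb. Of all 9561 genes tested, 1328 were higher without overlap in FR10 and 3360 lower. In CsA the groups overlapped for Apobec1, with 3.31 and 10.6 RPM in E9.5c5, against 3.47 and 2.12 RPM in d4c7.

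The core germ cell regulators were detected in all 4 FR10 libraries and did not pass the test. Of 20 tested genes of germ cell specification and identity, 0 were called, with 10 positive and 10 negative values and a median of −0.14, beside −0.20 over all genes. Tfap2c, a specification factor, had 62.9 and 83.9 RPM in E9.5c5, against 70.5 and 73.5 RPM in d4c7 (0.01 ± 0.26). Nanos3, an RNA-binding protein gene needed for PGC survival, had 28.9 and 24.4 RPM in E9.5c5, against 19 and 36.9 RPM in d4c7 (0.00 ± 0.38). The groups overlapped for both genes. Prdm14, which represses somatic and epiblast genes, had 58.9 and 48 RPM in E9.5c5, against 68.2 and 61.5 RPM in d4c7 (−0.28 ± 0.31).

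Prdm1 had 45.9 and 20.8 RPM in E9.5c5, against 70.5 and 69.7 RPM in d4c7 (−1.15 ± 0.44, limma adjusted p = 0.264), and its reporter was used to sort the d4c7 cells. Kit, the receptor of stem cell factor, had 109 and 103 RPM in E9.5c5, against 230 and 182 RPM in d4c7 (−0.94 ± 0.25, limma adjusted p = 0.171). In CsA, Kit had 121 and 73 RPM in E9.5c5, against 71.8 and 89.4 RPM in d4c7, and the groups overlapped. The difference between the media was not called for Kit (adjusted p = 0.677). Pou5f1, the gene of the pluripotency factor OCT4, had 395 and 531 RPM in E9.5c5, against 306 and 402 RPM in d4c7 (0.38 ± 0.20). Sox2, its partner, had 245 and 206 RPM in E9.5c5, against 382 and 280 RPM in d4c7 (−0.54 ± 0.24).

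Genes of later germ cells and of genome defence differed more, in the median, between the 2 E9.5c5 libraries than between E9.5c5 and d4c7. Of 21 tested members 0 were called, and their median was −0.59, beside −0.20 over all genes, but −0.03 without E9.5c5 replicate 2. In E9.5c5 replicate 2, 20 of the 21 were lower than in replicate 1, with a median log2 difference of −0.99, where 10 of the 21 were lower in d4c7 replicate 2. The CsA libraries had 19 of 21 lower in E9.5c5 replicate 2, with a median of −0.97. In both media 19 of the 21 (90.5%) were lower in replicate 2, beside 42.7% of all genes tested. The replicate differences of E9.5c5 in FR10 and in CsA correlated at 0.34 across all genes tested, and the labels do not say whether libraries of the same number share a batch of embryos. Replicate 2 of both E9.5c5 groups also had fewer genes detected at equal read number, 12646 in FR10 and 12054 in CsA, and the part of library quality in this was not tested.

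Dazl, an RNA-binding protein gene that licenses germ cells for gamete formation, had 694 and 93.7 RPM in E9.5c5, against 724 and 881 RPM in d4c7 (−1.64 ± 0.78, limma adjusted p = 0.336). In CsA it had 339 and 40 RPM in E9.5c5, against 304 and 462 RPM in d4c7. E9.5c5 replicate 1 was thus near d4c7 in both media, and replicate 2 far below it. Ddx4, the germ cell helicase gene, had 73.5 and 29.9 RPM in E9.5c5, against 85.6 and 73.5 RPM in d4c7 (−0.74 ± 0.58). Mael, of the piRNA pathway, had 17 and 3.77 RPM in E9.5c5, against 42.6 and 37.6 RPM in d4c7 (−2.15 ± 0.92, limma adjusted p = 0.299). The germ cell kinase gene Stk31 had 62.3 and 23.4 RPM in E9.5c5, against 69.7 and 68.4 RPM in d4c7. Mael and Stk31, chosen after their values were seen, were again lowest in E9.5c5 replicate 2. Among the 3280 genes with a mean of at least 50 RPM in the 4 libraries, 4 differed at least 4-fold between the E9.5c5 replicates, all higher in replicate 1, and 0 did between the d4c7 replicates. These were Dazl, the mitochondrial pyruvate carrier gene Mpc2, the testis ribosomal protein gene Rpl10l and Serf1.

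**Figure D3:**
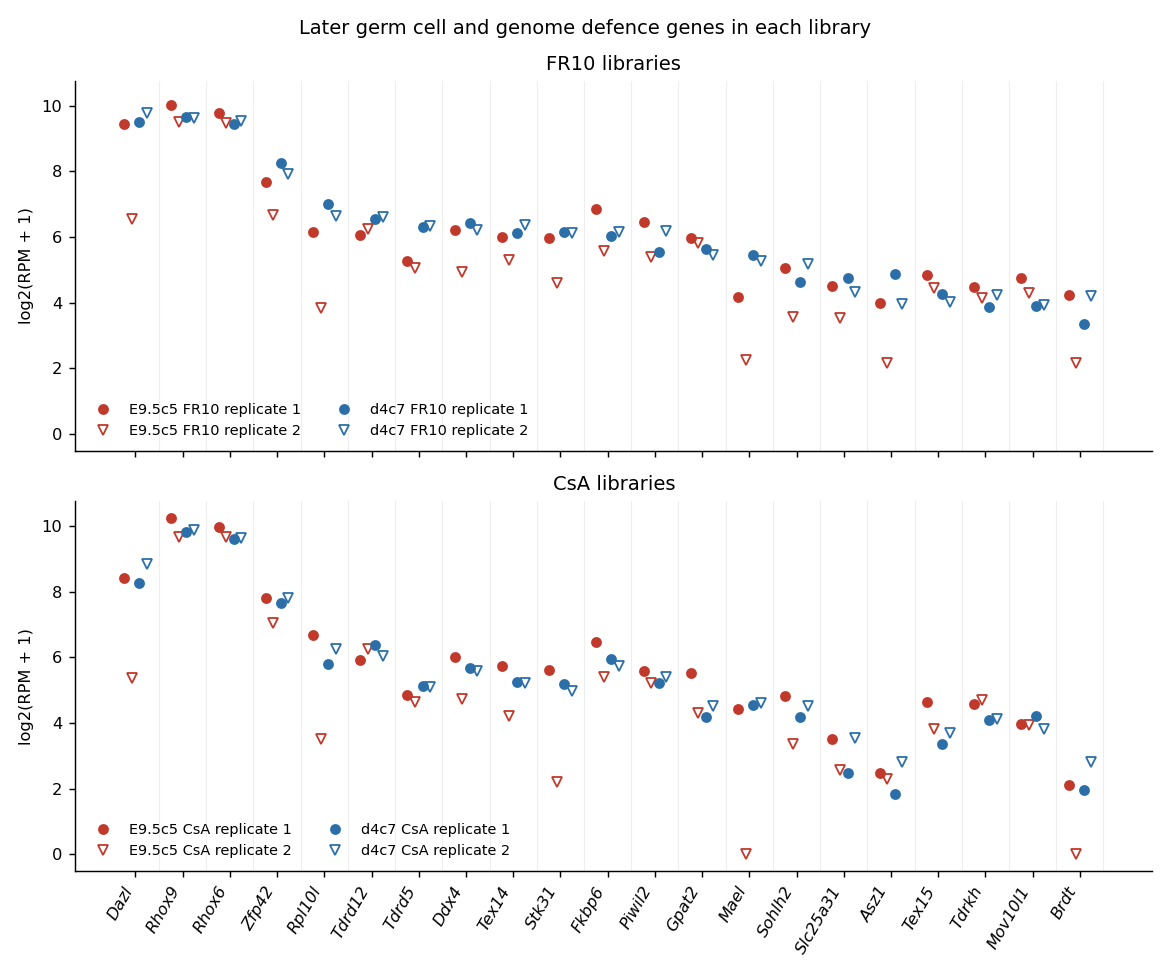
Levels as log2(RPM + 1) of the 21 tested genes of later germ cells and genome defence, in FR10 above and CsA below, with 1 symbol per library. Open red triangles, E9.5c5 replicate 2, lie below filled red circles, E9.5c5 replicate 1, for 20 of 21 genes in FR10 and 19 of 21 in CsA.

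The gap between the E9.5c5 replicates was small for some of these genes. Tdrd5, a Tudor domain gene of the piRNA pathway, had 37.8 and 32.1 RPM in E9.5c5, against 79 and 80.4 RPM in d4c7 (−1.17 ± 0.32, limma adjusted p = 0.184). Of 11 tested genes of meiotic entry and synapsis 0 were called, with a median of 0.26. Rec8, a meiotic cohesin gene, had 17 and 21.6 RPM in E9.5c5, against 6.97 and 14.5 RPM in d4c7 (0.86 ± 0.51). Stra8, the gene through which retinoic acid starts meiosis, had 20.8 and 1 RPM in E9.5c5, against 9.68 and 29.7 RPM in d4c7, and was chosen after its values were seen.

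Genes of pluripotency and of DNA methylation gave no call in FR10. Of 20 naive pluripotency genes 0 were called (median −0.33), and of 20 formative and primed epiblast genes 0 were called (median −0.18). Otx2, a transcription factor gene of the primed epiblast that opposes germ cell fate, was listed at 0 in both E9.5c5 libraries, against 3.87 and 5.18 RPM in d4c7 (limma adjusted p = 0.0711). Lefty2, an inhibitor of Nodal, had 23.5 and 15.3 RPM in E9.5c5, against 5.42 and 3.45 RPM in d4c7 (1.90 ± 0.41, limma adjusted p = 0.108). Both were low in level, and the groups did not overlap for either. Of 13 DNA methylation enzyme genes 0 were called (median −0.30). Dnmt3b, a de novo methyltransferase gene, had 8.17 and 10.3 RPM in E9.5c5, against 18.6 and 26.9 RPM in d4c7 (−1.20 ± 0.32, limma adjusted p = 0.171). Tet1, which oxidises methylated cytosine, had 110 and 95.9 RPM in E9.5c5, against 146 and 155 RPM in d4c7 (−0.54 ± 0.20).

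Of 23 tested imprinted genes Phlda2 was the 1 called, and the median was −0.15, or 0.04 without E9.5c5 replicate 2. Peg3, a paternally expressed zinc finger gene, had 202 and 180 RPM in E9.5c5, against 259 and 394 RPM in d4c7 (−0.74 ± 0.28). Inpp5f had 24.2 and 17.8 RPM in E9.5c5, against 62.7 and 44.9 RPM in d4c7 (−1.31 ± 0.45). Neither passed, with limma adjusted p-values of 0.26 and 0.227. None of the 35 Hox genes listed reached the level for testing.

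Signalling and stress genes were also without calls. The 23 tested FGF and MAPK response genes had a median of −0.39, the 14 cAMP response genes −0.33 and the 15 immediate early genes −0.45, beside −0.20 over all genes. Without E9.5c5 replicate 2 these medians were −0.22, −0.15 and −0.25, beside −0.14 over all genes. In CsA the medians of the 3 lists were −0.23, −0.09 and 0.01, beside −0.07 over all genes. Spry2, a feedback inhibitor of FGF signalling, had 1.7 and 4.27 RPM in E9.5c5, against 13.2 and 8.63 RPM in d4c7 (−1.63 ± 0.44, limma adjusted p = 0.178). Dusp6, a phosphatase gene that limits ERK, had 3.06 and 0 RPM in E9.5c5, against 5.81 and 8.63 RPM in d4c7. In CsA, Spry2 had 6.03 and 7.92 RPM in E9.5c5, against 6.37 and 3.93 RPM in d4c7, and the difference between the media was not called (adjusted p = 0.677).

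Among 28 genes of endoplasmic reticulum folding and stress 0 were called, with a median of −0.27. Hspa5, the main chaperone gene of that compartment, had 187 and 107 RPM in E9.5c5, against 257 and 288 RPM in d4c7 (−0.94 ± 0.31, limma adjusted p = 0.218). The metallothionein gene Mt2 had 625 and 1130 RPM in E9.5c5, against 423 and 328 RPM in d4c7 (1.17 ± 0.35, limma adjusted p = 0.202). Its close relative Mt1 had 184 and 315 RPM in E9.5c5, against 107 and 96.3 RPM in d4c7 (1.24 ± 0.44). Both metallothionein genes, which bind zinc and copper, were higher in each E9.5c5 library than in each d4c7 library in FR10. The p53 target and Bcl2 family lists had 0 called of 19 and of 18.

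In metabolism, glycolysis and hypoxia genes had a median of 0.25 in FR10, or 0.07 without E9.5c5 replicate 2, and −0.19 in CsA, with 0 of 23 called. Pkm, the pyruvate kinase gene of growing cells, had 682 and 1060 RPM in E9.5c5, against 477 and 566 RPM in d4c7 (0.71 ± 0.23, limma adjusted p = 0.202). Oxidative phosphorylation genes had a median of 0.18 in FR10 and −0.21 in CsA, with 0 of 31 called. Cox5b, a subunit of cytochrome c oxidase, had 625 and 550 RPM in E9.5c5, against 372 and 410 RPM in d4c7 (0.59 ± 0.15, limma adjusted p = 0.171). The medians of both lists had opposite signs in the 2 media, and whether they differ was not tested for the lists. For ribosomal protein genes, 24 of 32 were positive in FR10, with a median of 0.29 and 0 called.

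Cell cycle genes had medians of −0.25 (S phase, 25 tested) and −0.32 (G2 and M phase, 29 tested), with 0 called. Pcna, the sliding clamp of DNA replication, had 586 and 358 RPM in E9.5c5, against 1030 and 751 RPM in d4c7 (−0.94 ± 0.23, limma adjusted p = 0.156). The replicative helicase gene Mcm4 had 122 and 143 RPM in E9.5c5, against 239 and 187 RPM in d4c7 (−0.67 ± 0.19, limma adjusted p = 0.195). In CsA, Pcna had 698 and 448 RPM in E9.5c5, against 481 and 482 RPM in d4c7, the groups overlapped, and the difference between the media was not called (adjusted p = 0.677).

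**Figure D4:**
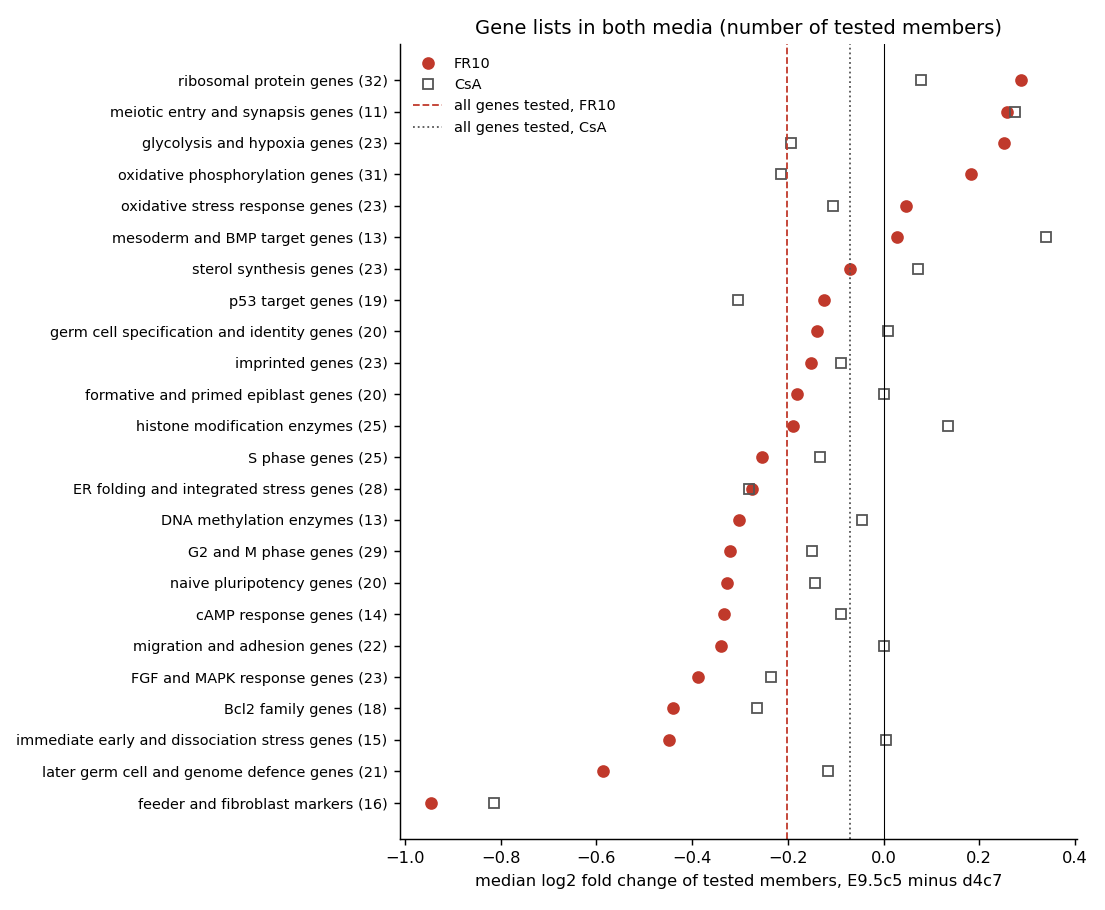
Median log2 fold change, E9.5c5 minus d4c7, of the tested members of each gene list with at least 10 tested members, in FR10 (filled circles) and CsA (open squares), with dashed and dotted lines at the medians of all genes, −0.20 and −0.07. Feeder and fibroblast markers have the lowest median in both media, −0.95 and −0.81.

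Markers of feeder cells summed to less in E9.5c5 than in d4c7 in FR10. The 28 feeder and fibroblast markers summed to 586 and 433 RPM in E9.5c5, against 1010 and 925 RPM in d4c7 in FR10. In CsA the sums were 829 and 238 RPM in E9.5c5, against 851 and 675 RPM in d4c7. Day 4 PGCLCs, which had not been on feeders, had 761 and 798 RPM. ESCs had 1690 and 1650 RPM and EpiLCs 354 and 352 RPM. The fibronectin gene Fn1 alone gave 384 and 221 RPM of the sums in E9.5c5, against 608 and 548 RPM in d4c7. Of the 16 tested markers 14 had negative values and 0 were called, and 11 lay lower without overlap, which 35.1% of all genes tested did. Col3a1, a fibroblast collagen gene, had 24.8 and 16.6 RPM in E9.5c5, against 68.9 and 31.8 RPM in d4c7. Dcn, of the fibroblast matrix, had 21.1 and 27.4 RPM in E9.5c5, against 76.7 and 69.4 RPM in d4c7. The chemokine gene Cxcl12, a guidance cue for migrating PGCs, had 2.04 and 1.51 RPM in E9.5c5, against 20.9 and 20 RPM in d4c7 (−2.96 ± 0.80, limma adjusted p = 0.177). In CsA, Cxcl12 had 4.52 and 0 RPM in E9.5c5, against 5.21 and 1.81 RPM in d4c7, and the groups overlapped. Other d4c7 cells had 21.1 and 5.81 RPM with FGF10 and 1.9 and 0.243 RPM with FGF2. EpiLCs had 37 and 37.1 RPM of Cxcl12, day 4 PGCLCs 2.82 and 13.3 RPM and ESCs 0.265 and 1.48 RPM. In bulk RNA, fewer cells of a type and less RNA per cell cannot be told apart, and the part of feeder RNA in the genes that were called was not tested.

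The 14 endothelial markers summed to 61.9 and 110 RPM in E9.5c5, against 39.9 and 49.7 RPM in d4c7. Egfl7 alone gave 27.6 and 65 RPM of these sums in E9.5c5, against 11.6 and 29 RPM in d4c7, and the groups overlapped. The sums were 94.9 and 67.6 RPM in d4c7 cells with FGF10, 84.5 and 103 RPM with FGF2 and 50.4 and 55 RPM with CsA. EpiLCs had 72.4 and 54.6 RPM, ESCs 41.9 and 40.3 RPM and day 4 PGCLCs 28.2 and 36.7 RPM. Eng, an endothelial co-receptor of the TGF-beta family, had 14.3 and 16.3 RPM in E9.5c5, against 6.2 and 6.9 RPM in d4c7 (1.11 ± 0.41, limma adjusted p = 0.251). Neural markers summed to 104 and 100 RPM in E9.5c5, against 144 and 116 RPM in d4c7, most of it from Pax6 and Nes. Gut endoderm markers, from the tissue through which PGCs migrate, summed to 7.15 and 21.1 RPM in E9.5c5, against 24.8 and 22.4 RPM in d4c7. Blood and macrophage markers summed to 27.6 and 5.78 RPM in E9.5c5, against 6.58 and 40.4 RPM in d4c7. Markers of coelomic epithelium and gonadal soma summed to at most 4.65 RPM in the 4 libraries. The germ cell markers summed to 11300 and 11800 RPM in E9.5c5, against 8420 and 9640 RPM in d4c7. Dppa3 alone, whose level is not independent of the sorts, gave 3270 and 2620 RPM of the sums in E9.5c5. In both d4c7 libraries it gave 1490 RPM. The same markers summed to 8600 and 8880 RPM in ESCs.

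The culture with CsA gave a second set of libraries for the same cell sources. Of the 1421 genes with an unadjusted p under 0.05 in FR10, 1040 (73.2%) had the same sign in CsA, where 63.4% of all genes tested did. Of the 302 higher ones 243 (80.5%) and of the 1119 lower ones 797 (71.2%) had the same sign. All 4 genes called in FR10 had the same sign in CsA. The difference between the media was tested for each gene and 0 were called by limma, with 616 (6.44%) at an unadjusted p under 0.05. The voom fit on inferred reads also called 0.

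With the 2 media averaged, 4 libraries against 4, limma called 58 of the 9561 genes (0.607%), 17 higher (0.178%) and 41 lower (0.429%) in E9.5c5. This average shares its FR10 libraries with the first comparison and is not independent of it. All 4 genes called in FR10 were among the 58, with adjusted p-values of 7.29e-05 for Gdf3, 0.00208 for Rpl29 and Pfn1 and 0.00478 for Phlda2. Dppa3 was also called (0.93, adjusted p = 0.0229). With median-ratio scaling 42 were called, 17 higher and 25 lower, and with a weight per group 15, 7 higher and 8 lower. In a fit of the 12 cultured libraries 2 were called, both higher. Without the 3 libraries named above the count was 45, of which 25 were shared with the 58. It was 517 without E9.5c5 FR10 replicate 1 and 2213 without E9.5c5 CsA replicate 1. Leaving out any 1 of the 6 others gave 6 to 23. Gdf3 was called over both media in all 18 alternatives, Phlda2, Rpl29 and Pfn1 in 17 and Dppa3 in 10. The genes of the next paragraphs were named by applying the rule for FR10 to this average after its values were known. That rule takes called genes whose groups do not overlap, here 4 libraries against 4. Lack of overlap is thus no further result for the genes it names. Of the called genes, 16 of the 17 higher and 35 of the 41 lower met this condition.

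Lefty2 was among the genes higher in E9.5c5 over both media (1.57, limma adjusted p = 0.0229). In CsA it had 17.5 and 20.4 RPM in E9.5c5, against 10.1 and 5.44 RPM in d4c7. Higher levels of Lefty2 were seen in ESCs, with 259 and 237 RPM, day 4 PGCLCs, with 162 and 237 RPM, and EpiLCs, with 30.5 and 35.2 RPM. Rps4x, a ribosomal protein gene on the X chromosome, had 8450 and 10400 RPM in E9.5c5, against 4450 and 4950 RPM in d4c7 in FR10, and 7810 and 13700 RPM in E9.5c5, against 5050 and 4660 RPM in d4c7 in CsA (1.05, limma adjusted p = 0.00478). Like Rpl29 it has processed copies, and its level is uncertain for the same reason. Apoa2, an apolipoprotein gene of liver and yolk sac, had 3.4 and 5.52 RPM in E9.5c5 in FR10 and 3.01 and 4.9 RPM in CsA, and was listed at 0 in all 4 d4c7 libraries (limma adjusted p = 0.00478). Tomm34, a chaperone gene of mitochondrial import, had 161 and 184 RPM in E9.5c5, against 90.2 and 107 RPM in d4c7 in FR10 (both media 0.86, limma adjusted p = 0.0124). The groups did not overlap in either medium for these genes, which was a condition for naming them. Rps4x was called in 16 of the 18 alternatives, Apoa2 in 16 of 17, Tomm34 in 13 of 18 and Lefty2 in 9 of 18. Apoa2 is also 1 of the gut endoderm markers. ESCs had 7.95 and 11.1 RPM of Apoa2, EpiLCs 6.48 and 12 RPM and day 4 PGCLCs 3.76 and 1.35 RPM.

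Enah, which promotes the growth of actin filaments, had 73.8 and 53.7 RPM in E9.5c5, against 173 and 172 RPM in d4c7 in FR10, and 111 and 46.9 RPM in E9.5c5, against 147 in both d4c7 libraries in CsA (−1.23, limma adjusted p = 0.0128). Amotl2, a junction protein gene, had 1.36 and 1.76 RPM in E9.5c5, against 10.1 and 9.32 RPM in d4c7 in FR10 (both media −1.49, limma adjusted p = 0.0229). Socs3, the feedback inhibitor of LIF and STAT3 signalling, had 2.38 and 1 RPM in E9.5c5, against 7.74 and 7.25 RPM in d4c7 in FR10, and 1.21 and 0.189 RPM in E9.5c5, against 3.76 and 9.97 RPM in d4c7 in CsA (−1.93, limma adjusted p = 0.0229). The values of Socs3 were near the lower end of what was tested. They were below those of d4c7 in every E9.5c5 library, which the rule for this average requires.

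Hesx1, a homeobox gene that pluripotent cells and the anterior neural plate express, had 1.7 and 0.753 RPM in E9.5c5, against 14.3 and 11.4 RPM in d4c7 in FR10 (both media −2.29, limma adjusted p = 0.0229). Otx2 fell with it over both media (−1.77, limma adjusted p = 0.0229), with 2.11 and 0.754 RPM in E9.5c5, against 4.63 and 3.32 RPM in d4c7 in CsA. Micall1, of endosome recycling, had 1.7 and 1 RPM in E9.5c5, against 11.6 and 18.3 RPM in d4c7 in FR10 (both media −2.54, limma adjusted p = 0.0229). Ly6a, a surface antigen gene known as Sca-1, had 5.44 and 8.54 RPM in E9.5c5, against 14.3 and 18.3 RPM in d4c7 in FR10, and 1.51 and 0.189 RPM in E9.5c5, against 26 and 8.76 RPM in d4c7 in CsA (−2.18, limma adjusted p = 0.0279). Hif1a, the hypoxia factor gene, had 87.1 and 66.8 RPM in E9.5c5, against 137 and 127 RPM in d4c7 in FR10 (both media −0.74, limma adjusted p = 0.0492). Of the lower genes named, Enah was called in 13 of the 18 alternatives, Amotl2 in 8, Socs3 and Otx2 in 7 and Hif1a in 6, and of 17 alternatives Micall1 was called in 9 and Hesx1 and Ly6a in 7.

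**Figure D5:**
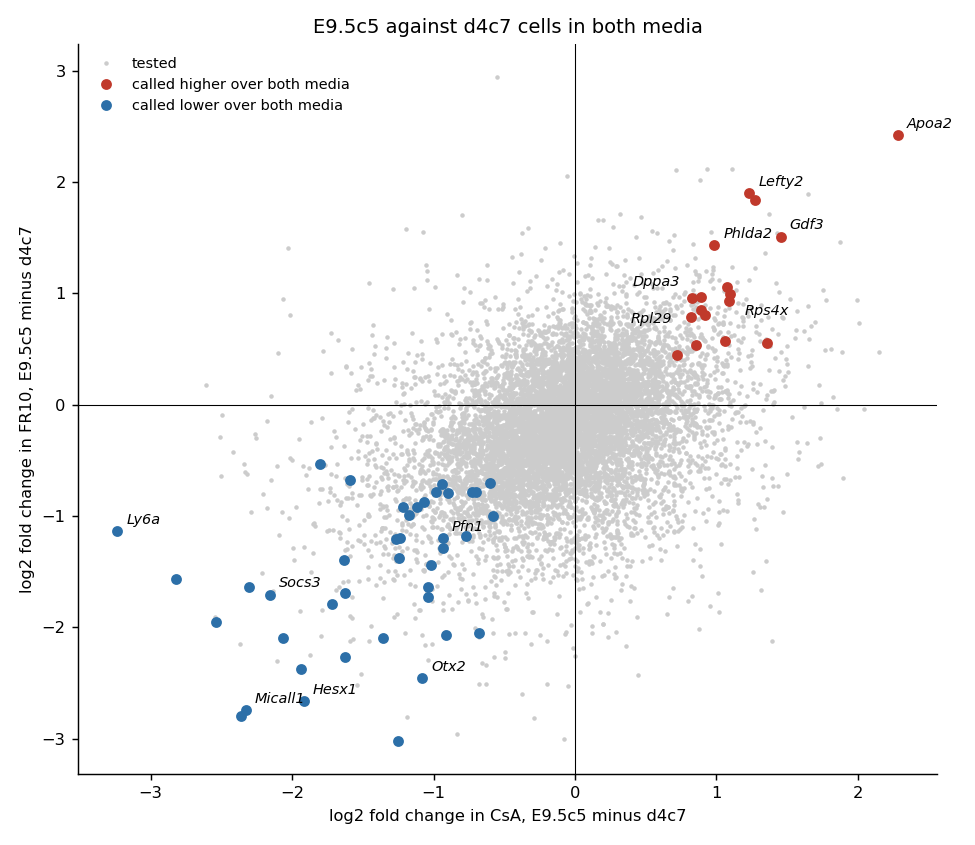
Log2 fold change, E9.5c5 minus d4c7, in FR10 on the y axis and in CsA on the x axis for the 9561 genes tested. The 17 genes called higher over both media lie in the upper right and the 41 called lower in the lower left. No library is shared between the axes.

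Genes on the X chromosome had a median of −0.04 in FR10 (337 tested), beside −0.21 for 9167 autosomal genes, and 0.11 in CsA, beside −0.08. Single autosomes had medians of −0.40 to 0 in FR10, where chromosome 7 stood above the X chromosome, and of −0.11 to 0 in CsA. Over both media 5 of the 337 genes on the X chromosome were called (1.48%), beside 0.607% of all genes, Rps4x and the kinase gene Cdk16 among them. Xist, the RNA that silences an X chromosome, was listed at 0 in both E9.5c5 libraries, against 3.1 and 1.04 RPM in d4c7 in FR10. Kdm5c, an X-linked histone demethylase gene that escapes silencing, had 45.3 and 36.4 RPM in E9.5c5, against 24.8 and 30.4 RPM in d4c7, and was not called. Kdm6a, another X-linked demethylase gene that escapes silencing, had 32.7 and 7.79 RPM in E9.5c5, against 32.1 and 27.6 RPM in d4c7 (−0.84 ± 0.55), and was not called. Of the 4 tested genes of X dosage 2 were positive and 2 negative. Of the genes tested 0 lay on the Y chromosome, so Y-linked genes could not be compared.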

How the data were processed

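Expression was measured by SC3-seq, which sequences the 3′ ends of transcripts, with 1 ng of RNA as input to the amplification, per the labels. The deposited files give RPM per gene, reads scaled by the authors to a library total, with no length correction. The submitters' processing notes list, without roles, mm10 and the tools TopHat 1.4.1, Cufflinks 2.2.0 and cutadapt 1.3, while annotation and read counting are not described in the sources used here. Of 34896 genes listed, 46 had no value and were left out.

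Genes with at least 10 RPM in at least 2 of the 18 libraries were kept. Values were taken as log2(RPM + 1), on which scale changes of low genes are understated. All 18 libraries entered 1 limma fit (limma 3.58.1, R 4.3.3) with a mean per group, an empirical Bayes trend and 9 residual degrees of freedom, and p-values were Benjamini-Hochberg adjusted over all tested genes. The spread is thus shared by all 9 groups of 2. The labels call the cultured replicates biological. Depth was inferred from the step between low values, where 3 reads are worth 0.753 to 1.16 RPM in the 4 libraries; a few values lay far below that step, so no count model was the main test. No source names molecular identifiers, so depth covers counting error only.

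The comparison, the 31 gene lists and the naming rule were chosen with earlier results of these data known. Genes named are those called in FR10, up to 2 members per list by smallest p, a fixed germ cell panel and the 12 of smallest p in each direction, beside the genes of the average over both media; 1 gene the rule names is not reported here. Genes around Gdf3, genes far apart between E9.5c5 replicates, Mael, Stk31, Stra8, Col3a1, Dcn and Fn1 were chosen after their values were seen. Names and coordinates come from RefSeq (GRCm38.p6). Alternatives were other pseudocounts (0.1 and 10 RPM), filters (none and 50 RPM), scaling, fits of fewer libraries, weights, a replicate block, voom and single libraries left out.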

Additional observations from a re-analysis of the deposited data

How the results depend on the processing

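The count of 4 genes in FR10 was 9 with a pseudocount of 10 RPM, 50 without a filter, 2 with median-ratio scaling, 10 with a weight per group, 31 without the replicate 2 libraries of d4c7 FGF2, E9.5c5 FR10 and E9.5c5 CsA, and 0 in fits of the 12 cultured libraries or of the 4 FR10 libraries alone. With single libraries left out it was 0 to 259. In CsA the count of 1 was 3 without a filter, 7 with voom, 24 without the 3 libraries, 0 with weights or in the 12 cultured libraries, and 0 to 1394 with single libraries left out. The difference between media, with 0 called, gave 1 without a filter and 0 to 6 with single libraries left out. Over both media the count of 58 was 29 and 121 with pseudocounts of 0.1 and 10 RPM, 35 without a filter, 2 in the 12 cultured libraries, 15 with weights, 189 with voom and 6 to 2213 with single libraries left out. Of list members, 1 called in FR10 became 3 with a pseudocount of 0.1 RPM, 2 without a filter, with a filter of 50 RPM or with weights, 5 without the 3 libraries, 0 with voom, in the 12 cultured libraries or in the 4 alone, and 0 to 15 with single libraries left out. A library left alone in its group is assumed to vary like the other groups. The causes were not tested.

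Replicate numbers are not stated to pair cultures. The replicate differences of E9.5c5 FR10 and d4c7 FR10 correlated at 0.128 across genes, those of the CsA groups at −0.015 and those of E9.5c5 FR10 and E9.5c5 CsA at 0.34. With a replicate block 8 genes were called in FR10, 1 in CsA, 0 for the difference between media, 153 over both media and 1 among list members.

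Of 64 genes followed, 62 kept their sign in FR10 under every alternative run. Tfap2c had −0.19 without E9.5c5 replicate 2, alone or with the other 2 libraries, −0.02 without d4c7 replicate 1 and 0.22 without E9.5c5 replicate 1, the highest. Nanos3 had −0.012 with a pseudocount of 10 RPM, −0.12 without E9.5c5 replicate 1, −0.46 without d4c7 replicate 1, 0.46 without d4c7 replicate 2 and −0.034 with voom. At these depths genes near 1 RPM rest on a few reads.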

Other observations

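Across the 18 libraries, 24 of 9561 genes (0.251%) had all 4 E9.5c5 libraries above the 14 others, and 18 (0.188%) had all 4 below. Gdf3, Dppa3, Rpl29 and Rps4x stood furthest above by the ratio of the lowest E9.5c5 level to the highest other, each with 1 RPM added, at 1.94, 1.45, 1.33 and 1.21. Syt5, a synaptotagmin gene of vesicle release, had 15.8 to 33.3 RPM in E9.5c5, against 0 to 14.2 RPM in the others, and Polg, the mitochondrial DNA polymerase gene, 82 to 94.9 RPM in E9.5c5, against 17.6 to 75.6 RPM. Furthest below was Nudcd1, with 21.9 to 32 RPM in E9.5c5, against 41.4 to 70.3 RPM in the others. Bckdhb, an enzyme gene of branched-chain amino acid breakdown, had 9.05 to 11.4 RPM in E9.5c5, against 14.8 to 43 RPM. These genes were chosen after their values were seen.

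The genes with the smallest p for the difference between FR10 and CsA were not called (limma adjusted p = 0.677). Bop1, of ribosome assembly, had 127 and 111 RPM in E9.5c5, against 86.4 and 70.4 RPM in d4c7 in FR10, and 94.9 and 69.9 RPM in E9.5c5, against 142 and 118 RPM in d4c7 in CsA. Rheb, the activator of mTORC1, had 155 and 140 RPM in E9.5c5, against 255 and 210 RPM in d4c7 in FR10, and 160 and 162 RPM in E9.5c5, against 113 and 122 RPM in d4c7 in CsA. The transcription factor gene Dmtf1 had 27.2 and 23.6 RPM in E9.5c5, against 70.9 and 42.1 RPM in d4c7 in FR10, and 38.3 and 25.3 RPM in E9.5c5, against 13.9 and 16 RPM in d4c7 in CsA. For these 3 genes the sign turned between the media without overlap of the groups in either, which choosing by smallest p favours. The share of all genes with such values was not counted.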
